A study of Mus musculus with 6 samples.

Results

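Costimulatory and adhesion molecules of BV2 cells, an immortalised mouse microglial line, are described by 10 genes: Cd40, Cd80, Cd83, Cd86, Cd274, Tnfsf9, Icam1, Vcam1, Cd44 and Cd69. They were chosen by symbol, each as the brightest probe set annotated with that symbol alone, and they are 10 of the 22180 genes with such a probe set. Each of the 10 had 1 probe set. Gene expression was measured on 6 whole-transcript arrays, 3 from cells given telmisartan and LPS and 3 from cells given telmisartan, GW9662 and LPS, with the drugs for 2 h and LPS for the last 1 h of 3 h in all. The cells of both groups carry the wild-type genotype in the labels, and both groups received telmisartan and LPS. Telmisartan blocks the angiotensin II type 1 receptor and partly activates the nuclear receptor PPARG, GW9662 binds PPARG irreversibly and antagonises it, and LPS, from the outer membrane of bacteria, is the ligand of the receptor TLR4. Arrays without LPS or without telmisartan were not analysed here, so induction of these genes by LPS was not measured, and the comparison is of telmisartan and LPS with and without GW9662. The labels call the samples independent but do not say that they came from separate cultures, and the p-values therefore rest on a spread that could be partly technical. All samples are of 1 cell line, and doses are not given in the labels.

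A T cell that recognises an antigen responds fully only when the cell presenting it also shows costimulatory molecules. CD80 and CD86 deliver this signal through CD28 and are bound by the inhibitory receptor CTLA4, PD-L1 (Cd274) restrains the T cell through PD-1, and CD40 on the presenting cell receives the T cell's CD40 ligand. ICAM1 and VCAM1 hold the cells together by binding integrins, and CD44 binds hyaluronan of the matrix. Resting microglia show little of these molecules, and TLR4 signalling through NF-kB and interferon is known to raise many of them.

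With GW9662, 7 of the 8 genes tested had a lower mean level than without it, and none passed the test across all genes (limma, Benjamini-Hochberg adjusted p from 0.947 to 0.994). The lower ones included the CD28 ligands Cd80, at 1.22-fold lower, and Cd86, at 1.18-fold lower, the hyaluronan receptor Cd44, at 1.13-fold lower, and the integrin ligand Icam1, at 1.12-fold lower. In these 4 genes every array with GW9662 lay under every array without it, which held for 1 of them, Cd80, after each array was centred on its median. Tnfsf9, the ligand of the T cell receptor 4-1BB, was the 1 tested gene with a higher mean, by 0.04 on the log2 scale. Vcam1 and Cd69 lay under the level filter of 6.15, the median log2 level over all probe sets, and were not in the main test. Across all 12212 genes tested 0.0409% passed, 2 genes (0.0164%) lower and 3 (0.0246%) higher with GW9662. At an unadjusted p under 0.05, 4 of the 8 genes were lower and 0 higher, where 2.78% of all genes tested were lower and 1.66% higher. A negative difference was found in 58.8% of all genes tested, and groups that did not overlap, with the lower levels under GW9662, in 5.36%. Groups apart in the other direction were found in 0 of the 8 genes and in 4.01% of all genes tested. The median difference of the 8 genes was -0.15 on the log2 scale, against -0.02 over all genes tested. The genes were chosen with earlier results of these data known, so these contrasts only describe the list. In RNA from a whole culture, fewer cells that express a gene and less RNA per cell cannot be told apart.

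Before the single genes, 2 arrays need mention. The first principal component of the genes tested held 42.8% of the variance and set 1 array of each group apart, replicate 3 without GW9662 (score 14.6) and replicate 2 with it (score 7.55), where the remaining arrays scored from -8.15 to -0.98. Values without both are given with the genes. All 6 arrays correlated at 0.990 to 0.996. Of the 12 microglia markers with a probe set, such as the macrophage receptor gene Csf1r and the lysosomal marker Cd68, 10 passed the level filter, 0 passed the test, and their mean log2 level was 9.37 to 9.52 without GW9662 and 9.39 to 9.41 with it. P2ry12 and Tmem119, which mark microglia in the brain, lay under the filter (mean log2 levels of 5.87 and 6.08 without GW9662, 5.77 and 6.04 with it). Among markers of other cells, the mean log2 level without and with GW9662 was 6.84 to 6.98 and 6.83 to 6.97 for 7 dendritic cell genes, 5.68 to 5.81 and 5.62 to 5.81 for 8 endothelial genes, 5.80 to 5.85 and 5.69 to 5.93 for 7 fibroblast genes, 5.40 to 5.54 and 5.33 to 5.60 for 7 lymphocyte genes, and 6.23 to 6.44 and 6.20 to 6.39 for 8 astrocyte and neuron genes. Of these, 3 dendritic cell, 4 endothelial, 3 fibroblast, 1 lymphocyte and 4 astrocyte and neuron genes passed the level filter. The list means hide brighter members, such as Itgax of the dendritic list (9.03) and the neuron gene Syn1 (8.52). The ranges of the groups overlapped in each of these lists. RMA gives every probe set a level above 0, so a low level does not by itself show that a gene was off. Of 10 housekeeping genes 0 passed, with a median difference of -0.0033.

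**Figure D1:**
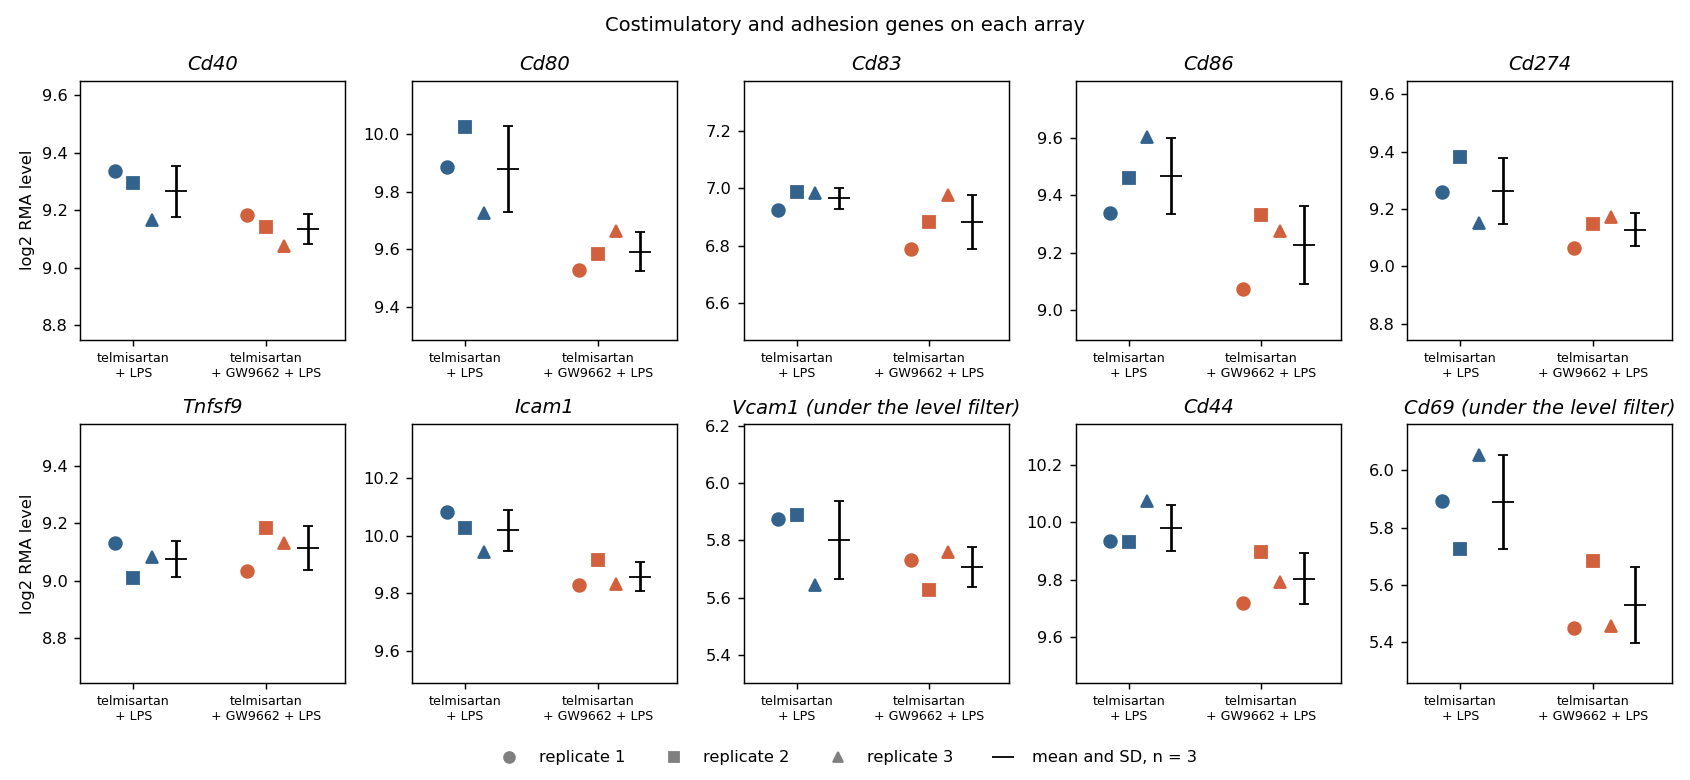
Log2 RMA level (vertical axis) of the 10 genes on each of the 6 arrays, by group. Symbols mark the replicate number, which was not taken to pair samples, and black bars give the mean and SD of 3 arrays. Each panel spans the same log2 range around its own mean. Cd80, Cd86, Icam1, Cd44 and Cd69 show no overlap between the groups, with gaps of 0.0079 (Cd86) to 0.07 (Cd80), while the other 5 overlap. Groups apart with the lower levels under GW9662 were found in 4.91% of all 22180 genes without the level filter. With arrays centred on their medians, Cd80 alone of the 8 tested genes keeps the separation, and 2.31% of all genes tested are apart and lower.

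The B7 family ligands come first. Cd80 (probe set 17325608), the B7-1 ligand of CD28 and CTLA4, had log2 levels of 9.89, 10.03 and 9.73 on replicates 1, 2 and 3 without GW9662 and of 9.53, 9.58 and 9.66 with it. All 3 arrays with GW9662 were below the lowest array without it, which was replicate 3. The group means were 9.88 ± 0.15 and 9.59 ± 0.07 (SD, n = 3 in each), a difference of -0.29 ± 0.09 (SE, 95% interval -0.49 to -0.09) at an adjusted p of 0.947 in limma. By its unadjusted p it ranked 134 among the 12212 genes, the highest rank of the 8. Without replicate 2 of telmisartan and LPS, its highest array, the difference was -0.22, without replicate 3 it was -0.37, and without both arrays that stood apart it was -0.36.

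Cd86 (probe set 17330203), the B7-2 ligand of the same receptors, had log2 levels of 9.34, 9.46 and 9.60 without GW9662 and of 9.07, 9.33 and 9.28 with it. The groups only just failed to overlap, since replicate 2 with GW9662 lay 0.0079 under replicate 1 without it, and replicate 1 with GW9662 was the low array of its group. The means were 9.47 ± 0.13 and 9.23 ± 0.14, a difference of -0.24 ± 0.10 (95% interval -0.46 to -0.02) at an adjusted p of 0.994. Without that low array the difference was -0.16, and without both arrays that stood apart it was -0.23. The arrays of the group without GW9662 did not follow the same order in these ligands, since replicate 3 was the lowest for Cd80 and the highest for Cd86.

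Cd274 (probe set 17358544), which encodes the inhibitory ligand PD-L1, had log2 levels of 9.26, 9.38 and 9.15 without GW9662 and of 9.06, 9.15 and 9.17 with it. Replicate 3 with GW9662 lay above replicate 3 without it, so the groups overlapped on this pair of arrays. The difference of the means, 9.26 ± 0.11 and 9.13 ± 0.06, was -0.14 ± 0.08 (95% interval -0.31 to 0.04, adjusted p = 0.994 in limma). It ranged from -0.19 to -0.08 with 1 array left out, the latter without replicate 2 of the arrays lacking GW9662, and was -0.20 without both arrays that stood apart.

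Of the TNF family, Cd40 (probe set 17379659), the receptor through which T cells activate the presenting cell, had log2 levels of 9.34, 9.30 and 9.17 without GW9662 and of 9.18, 9.14 and 9.08 with it. The overlap came from replicate 3 without GW9662, which lay 0.02 under replicate 1 with it. The difference of the means, 9.27 ± 0.09 and 9.13 ± 0.05, was -0.13 ± 0.07 (95% interval -0.29 to 0.03, adjusted p = 0.994 in limma), and -0.19 without both arrays that stood apart. Tnfsf9 (probe set 17338959), which encodes the 4-1BB ligand, had log2 levels of 9.13, 9.01 and 9.08 without GW9662 and of 9.03, 9.18 and 9.13 with it. The groups lay across each other, and replicate 1 with GW9662 was again the low array of its group. The difference was 0.04 ± 0.07 (95% interval -0.12 to 0.20, adjusted p = 0.994), and it was 0.0064 when its own high array, replicate 2 with GW9662, was left out, 0.011 without both arrays that stood apart and -0.025 with array weights.

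Cd83 (probe set 17286905), a marker of mature dendritic cells whose product keeps MHC class II and CD86 on the surface, had log2 levels of 6.92, 6.99 and 6.98 without GW9662 and of 6.79, 6.88 and 6.98 with it. Replicate 3 with GW9662 was level with the arrays without it, and the other arrays with GW9662 were lower. The difference was -0.08 ± 0.07 (95% interval -0.24 to 0.08, adjusted p = 0.994 in limma) and -0.04 without replicate 1 of the group with GW9662. It was -0.13 without replicate 3 of that group and -0.07 without both arrays that stood apart. With a mean near 6.92 it was the dimmest of the 8 tested probe sets relative to the filter of 6.15.

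Among the adhesion genes, Icam1 (probe set 17515074), whose product is bound by the leukocyte integrins LFA-1 and Mac-1, had log2 levels of 10.08, 10.03 and 9.94 without GW9662 and of 9.83, 9.92 and 9.83 with it. The lowest array without GW9662 lay 0.03 above the highest with it. The means were 10.02 ± 0.07 and 9.86 ± 0.05, a difference of -0.16 ± 0.07 (95% interval -0.31 to -0.0072, adjusted p = 0.994 in limma). With 1 array left out it stayed between -0.20 and -0.13, and without both arrays that stood apart it was -0.23. Cd44 (probe set 17388733), the hyaluronan receptor, had log2 levels of 9.93, 9.93 and 10.07 without GW9662 and of 9.72, 9.90 and 9.79 with it. Its groups were 0.04 apart, with replicate 3 the high array of the group without GW9662. The means were 9.98 ± 0.08 and 9.80 ± 0.09, a difference of -0.18 ± 0.08 (95% interval -0.35 to -0.0052, adjusted p = 0.994), -0.13 without replicate 3 of telmisartan and LPS, and -0.18 without both arrays that stood apart.

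Promoter sequence from the RefSeq table of mouse build GRCm38.p6 matched 4 of the 10 genes. It is shown for the 3 of them whose groups did not overlap in the main test, 5′ to 3′ on the gene's strand from 250 bases before to 50 after the annotated start, with motif matches in capitals. Icam1 lies on the plus strand at chr9:21015690-21015989, Cd80 on the plus strand at chr16:38458683-38458982, and Cd44 on the minus strand at chr2:102901616-102901915.
Icam1: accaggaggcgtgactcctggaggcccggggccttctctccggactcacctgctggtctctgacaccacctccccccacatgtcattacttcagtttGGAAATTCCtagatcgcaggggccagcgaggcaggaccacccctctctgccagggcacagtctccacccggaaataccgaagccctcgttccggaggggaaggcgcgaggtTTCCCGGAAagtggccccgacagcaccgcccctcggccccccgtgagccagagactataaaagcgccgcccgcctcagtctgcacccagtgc
Cd80: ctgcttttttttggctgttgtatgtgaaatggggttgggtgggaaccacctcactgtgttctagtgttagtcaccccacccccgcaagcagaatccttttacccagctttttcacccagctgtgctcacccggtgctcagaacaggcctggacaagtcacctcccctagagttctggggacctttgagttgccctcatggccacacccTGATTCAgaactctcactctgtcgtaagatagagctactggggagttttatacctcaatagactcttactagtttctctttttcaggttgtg
Cd44: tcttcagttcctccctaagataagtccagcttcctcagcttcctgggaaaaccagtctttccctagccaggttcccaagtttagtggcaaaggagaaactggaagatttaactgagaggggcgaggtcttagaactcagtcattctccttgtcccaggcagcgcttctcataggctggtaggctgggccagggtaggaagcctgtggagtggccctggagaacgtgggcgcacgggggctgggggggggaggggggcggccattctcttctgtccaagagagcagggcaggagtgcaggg
The first capitals of Icam1, 153 to 145 bases before the start, match GGANNTTCC, a short form of the site that NF-kB binds in the human gene, and the second, 42 to 34 bases before it, match the STAT motif TTCNNNGAA. The capitals of Cd80, 42 to 36 bases before the start used, match TGANTCA. This is a loose form of the AP-1 motif that allows any base in the middle, here a T. That start is not the first base of the annotated Cd80 gene, which begins at 38457430, so the window lies inside the gene. Cd44 held none of the motifs searched, and neither did the window of Cd274, the fourth gene matched. The Cd274 window begins at 29367188 and also lies inside the annotated gene, which begins at 29362107. On either strand, TTCNNNGAA was in 8.47% of 27018 promoters of this length, TGANTCA in 7.94%, GGANNTTCC in 4.24%, the interferon response motif in 3.49% and the full kappaB consensus in 4.35%. The interferon response motif and the full kappaB consensus were in 0 of the 4 windows. GGANNTTCC was added after the sequence had been seen, and it overlaps the kappaB consensus in part. A match describes these letters only, and an absent one says nothing of the factor.

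The other 2 genes were dim. Vcam1 (probe set 17409649), whose product is the ligand of the integrin VLA-4, had log2 levels of 5.87, 5.89 and 5.65 without GW9662 and of 5.73, 5.63 and 5.76 with it. Its groups overlapped, and in a fit of all 22180 genes without the level filter the difference was -0.10 ± 0.09 (95% interval -0.30 to 0.11, limma adjusted p = 0.9998). Without both arrays that stood apart it was -0.14, and with 1 array left out it ranged from -0.17 to -0.05. Cd69 (probe set 17471502), an early activation marker of leukocytes that binds the lipid receptor S1PR1, had log2 levels of 5.89, 5.72 and 6.05 without GW9662 and of 5.45, 5.68 and 5.46 with it. Every array with GW9662 was below every array without it, by at least 0.04. The difference in the same fit was -0.36 ± 0.11 (95% interval -0.61 to -0.11, adjusted p = 0.9998), the most negative of the 10. It was -0.35 without both arrays that stood apart and -0.44 to -0.28 with 1 array left out. At this level the probe set's signal lies among those of the dimmer probe sets of the array, and signal over background was not analysed here.

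**Figure D2:**
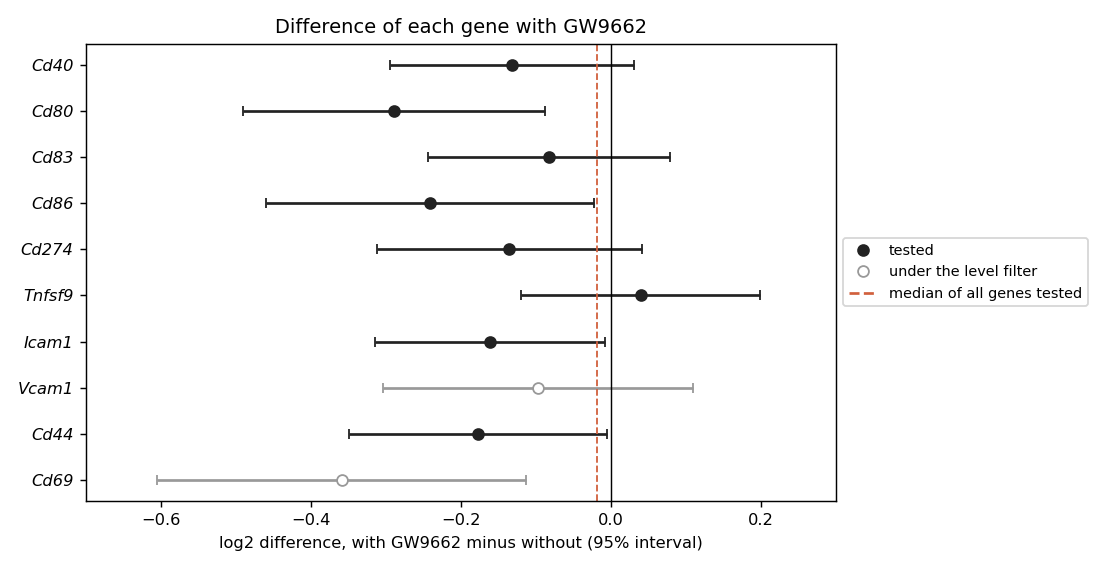
Log2 difference (horizontal axis), with GW9662 minus without, of the 10 genes with 95% intervals from limma; hollow points are the 2 genes under the level filter, from the fit of all genes. Points lie from -0.36 (Cd69) to 0.04 (Tnfsf9), and the intervals of Cd80, Cd86, Icam1, Cd44 and Cd69 leave out 0 before adjustment over all genes.

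Across arrays, the genes shared a low array. Replicate 1 with GW9662 was the lowest of its group in 7 of the 8 tested genes, all but Cd40, and the lowest of all 6 arrays in 6. The mean deviation of the 8 genes from their own means was -0.14 on that array, -0.03 and -0.05 on the other arrays with GW9662, and 0.07, 0.10 and 0.05 on replicates 1 to 3 without it. Over all genes tested the mean deviation of the arrays ran from -0.02, on the same replicate 1 with GW9662, to 0.03, on replicate 3 without GW9662. Leaving out replicate 1 with GW9662 gave a median difference of -0.14 for the 8 genes, with 7 of 8 negative. Replicate 3 without GW9662 was the lowest of its group for Cd40, Cd80, Cd274, Icam1 and Vcam1 and the highest for Cd86, Cd44 and Cd69. For an exact permutation test over the arrays, groups of 3 allow no two-sided p under 0.1, the value reached by each of the 5 genes whose groups did not overlap. Without the level filter, 4.91% of all 22180 genes had groups apart with the lower levels under GW9662.

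**Figure D3:**
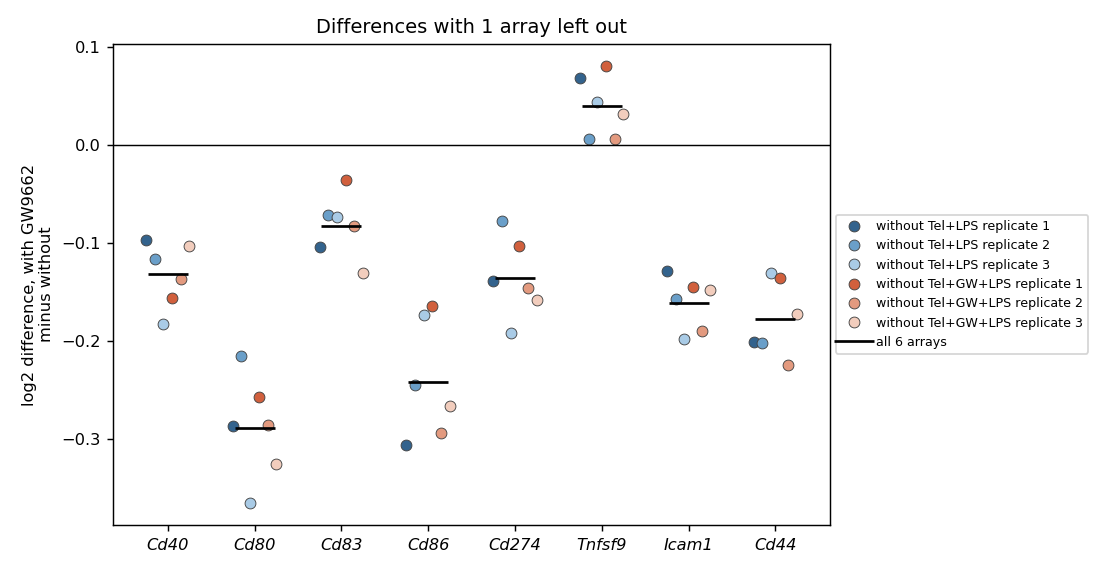
Log2 difference (vertical axis), with GW9662 minus without, of the 8 tested genes when 1 array is left out (points, coloured by the array) and with all 6 arrays (black bars). Cd80 ran from -0.37 to -0.22 and Cd86 from -0.31 to -0.16, and no point changed side of 0.

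Other surface ligands of the B7 and SLAM families and regulatory receptors did not share a direction. Of 18 tested, 12 were negative and 6 positive, with a median difference of -0.02, and 0 passed. Over all genes tested 58.8% of differences were negative, and 48.0% after median centring. Vsir, which encodes the inhibitory B7 relative VISTA, had log2 levels of 8.15, 8.20 and 8.13 without GW9662 and of 8.01, 8.06 and 7.78 with it, a difference of -0.21 ± 0.09. Its groups did not overlap, as was the case for Cd47, the signal that restrains phagocytosis, at -0.13 ± 0.07, and in the other direction for Ildr2, another B7 relative, at 0.17 ± 0.07. That is 2 of the 18 lower and 1 higher, where all genes tested had 5.36% lower and 4.01% higher. Without replicate 3 of the arrays with GW9662 Vsir differed by -0.12, and without replicate 3 of those lacking it Cd47 differed by -0.08. Among 13 TNF family ligands and receptors 6 were negative and 7 positive (median 0.02, 0 passed). Fas, the death receptor, had log2 levels of 7.41, 7.37 and 7.29 without GW9662 and of 6.97, 7.12 and 7.19 with it, a difference of -0.26 ± 0.08 (limma adjusted p = 0.928). The TNF receptor gene Tnfrsf1b differed by 0.12 ± 0.06 and Tnfsf14, the ligand LIGHT, by 0.11 ± 0.07. Of 10 counter-receptors carried by T cells, 2 passed the level filter, Cd28 with a difference of 0.02 ± 0.07 and the 4-1BB gene Tnfrsf9, the receptor of Tnfsf9's product, with -0.0043 ± 0.06. Their directions turned when single arrays were left out.

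On the adhesion side, 9 of 12 integrin genes and 15 of 19 other adhesion and hyaluronan genes were negative, with medians of -0.03 and -0.08, and 0 passed in either list. The share of negative differences over all genes tested was 58.8%. Groups did not overlap, lower with GW9662, in 4 of the 19 and 1 of the 12, and higher in 0 of the 19 and 1 of the 12. All genes tested had 5.36% lower and 4.01% higher. Itga4, the alpha chain of the VCAM1 receptor VLA-4, had log2 levels of 10.45, 10.24 and 10.54 without GW9662 and of 10.09, 10.28 and 10.17 with it. Replicate 2 of each group overlapped, and the difference was -0.23 ± 0.09. Itga6, a laminin-binding integrin chain, differed by -0.17 ± 0.07 and Itgb7, the other beta chain that pairs with alpha 4, by 0.09 ± 0.06. Pecam1, an adhesion molecule of endothelium and leukocytes, differed by -0.18 ± 0.08, Selp, the P-selectin gene, by -0.17 ± 0.09 and Madcam1, a ligand of alpha 4 beta 7, by 0.16 ± 0.09. The last 3 had mean log2 levels between 6.19 and 6.47 in each group, close to the filter. With 1 array left out, Madcam1 ranged from 0.09 (without replicate 3 lacking GW9662) to 0.22 and Selp from -0.25 to -0.10 (without replicate 1 lacking GW9662). With array weights Madcam1 differed by 0.05 and Selp by -0.28.

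Signalling genes of CD40, NF-kB, TLR4 and interferon are given by list. Of 19 CD40, TRAF and NF-kB genes 11 were negative (median -0.04, 0 passed), where 58.8% of all genes tested were negative. Tnfaip3, the NF-kB inhibitor A20, differed by -0.32 ± 0.08 (limma adjusted p = 0.647), Nfkbia, the inhibitor IkB alpha, by -0.20 ± 0.09 and Ikbkg, the scaffold of the IkB kinase, by 0.25 ± 0.09. With array weights Tnfaip3 passed (limma adjusted p = 0.0339, against up to 1.00 in the other alternatives). That setting leans on 1 array, since replicate 1 without GW9662 had a weight of 5.74 and the other arrays 0.37 to 1.37. Of 17 TLR4 and interferon signalling genes 14 were negative, with a median of -0.07 and 0 passing. Groups that did not overlap, lower with GW9662, were found in 3 of the 17 and in 5.36% of all genes tested. Irf1, a transcription factor of the interferon response, had log2 levels of 7.56, 7.58 and 7.53 without GW9662 and of 7.25, 7.44 and 7.33 with it, a difference of -0.22 ± 0.07 in groups that did not overlap. The kinase gene Ikbke differed by -0.17 ± 0.09, the interferon receptor gene Ifnar1 by -0.08 ± 0.06 and Tlr4 by -0.12 ± 0.09. Without replicate 3 lacking GW9662, Tlr4 differed by -0.01 and Ikbke by -0.08; Tlr4 was -0.18 without replicate 2 of that group.

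Antigen presentation and early activation genes completed the pathway. The share of negative differences over all genes tested, 58.8%, applies to their counts too. Of 9 antigen presentation genes 6 were negative (median -0.04, 0 passed), with the peptide transporter genes Tap2 at -0.18 ± 0.08 and Tap1 at -0.12 ± 0.10 and Ciita, the master regulator of MHC class II, at 0.09 ± 0.07. Tap1 ranged from -0.23 to -0.05 with replicate 1 or 2 lacking GW9662 left out. Of 8 genes of CD69 partners and early activation 3 were negative (median 0.02, 0 passed). Clec2d, a C-type lectin gene, differed by -0.31 ± 0.14, with replicate 1 of the group with GW9662 at 6.38 against 6.85 to 7.11 on the other arrays and a difference of -0.13 without it. Klf2, a transcription factor that keeps lymphocytes circulating, differed by 0.20 ± 0.12 and the lipid receptor gene S1pr2 by 0.14 ± 0.08. Leaving out replicate 2 with GW9662 gave 0.08 for Klf2, leaving out replicate 1 gave 0.34 for it and 0.09 for S1pr2. Pparg itself, the gene of the target of GW9662, lay under the level filter at 5.49 ± 0.13 without GW9662 and 5.44 ± 0.12 with it. Across the 9 lists, of 2 to 19 tested genes each, counts at an unadjusted p under 0.05 were 0 to 2 genes lower and 0 to 1 higher per list. Over all genes tested the shares were 2.78% lower and 1.66% higher.

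**Figure D4:**
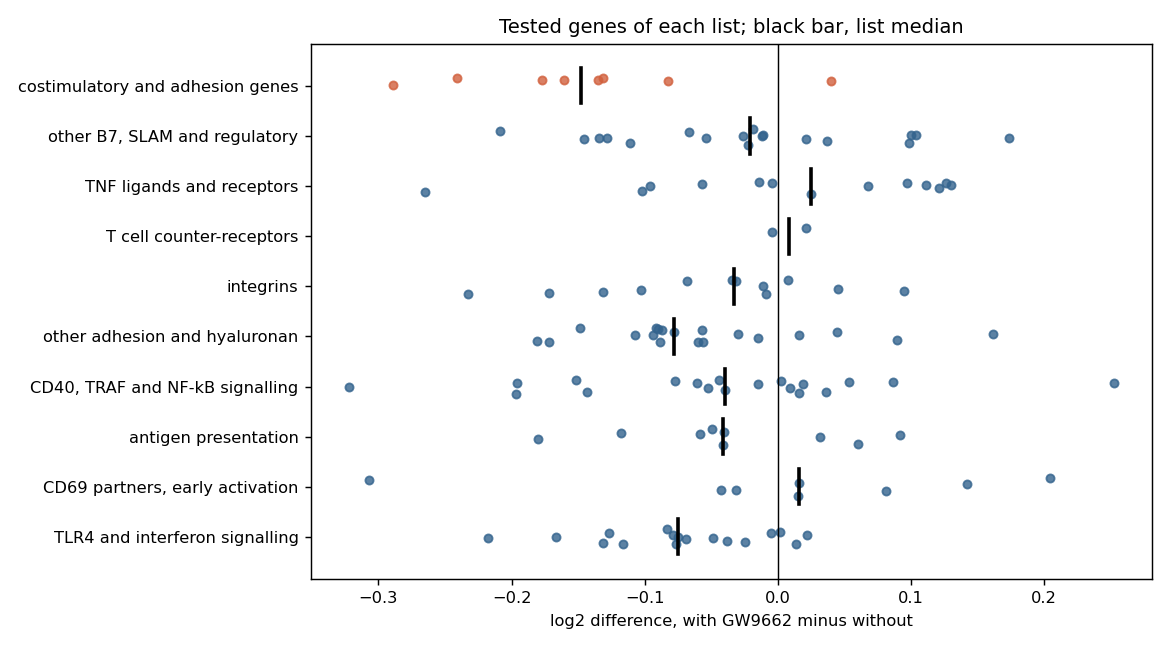
Log2 difference (horizontal axis), with GW9662 minus without, of each tested gene in the costimulatory and adhesion set (top row, 8 genes) and in 9 related lists, with the list median as a black bar. The medians run from -0.15 in the top row to 0.02 among TNF ligands and receptors; points are spread vertically only to keep them apart.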

How the data were processed

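Whole-transcript mouse arrays of 6 BV2 samples were analysed, 3 per group, with groups taken from the labels. The deposited log2 values were made by the authors with RMA, for which the submitters' processing notes name Affymetrix Expression Console. Version 1.4.1.46 of Affymetrix Power Tools ran it, per the file headers, with background correction, quantile normalization over the 6 arrays and median polish, so a shift of most transcripts would not be visible. The array design is that of the file headers, and the labelling protocol names its predecessor. Per the labels, 300 ng of total RNA was labelled.

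Of 41345 probe sets, 23521 carried 1 symbol in the platform annotation. The brightest probe set stood for each of 22180 genes. Those with a mean log2 level at or above 6.15, the median of the probe sets, numbered 12212 and were tested with limma 3.58.1 in R 4.3.3 (lmFit, eBayes, group as the only term, Benjamini-Hochberg over all genes tested, threshold 0.05). The number of arrays limits the precision. No array column was left out. The members, the gene lists and the tests were chosen with earlier results of these data known. Named beside the 10 genes were, in each related list, up to 4 genes that passed or else the 3 with the smallest p, and Tlr4 and Pparg. Lists were described by counts and medians, with no test over a list. The fit was checked on simulated data. Same-numbered arrays of the groups did not all deviate together (correlations of 0.29, -0.45 and -0.12 for replicates 1, 2 and 3). The labels do not state that the numbers mark a shared batch, and they were not taken to pair samples. Alternatives were another filter, other handling of probe sets, a second deposited table, rescaling, array weights, other moderation, the replicate block and omission of arrays. For Vcam1 and Cd69 the omission of arrays was added after the data had been seen.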

Additional observations from a re-analysis of the deposited data

How the results depend on the processing

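Under the 18 alternatives 0 of the 10 costimulatory and adhesion genes passed the threshold, with 7 to 10 of the 10 tested in each. Vcam1 and Cd69 were tested only without the level filter and with every probe set on its own. The limma adjusted p of the costimulatory and adhesion genes ranged from 0.100 (Cd80, with array weights) to 1.00, and exact permutation over the arrays cannot reach the threshold. The median difference of the tested genes ran from -0.19 to -0.12, and from 6 of 7 to 8 of 8 were negative (9 of 10 without the filter). Tnfsf9 took the opposite sign with array weights (-0.025). These weights were 5.74 for replicate 1 without GW9662 and 0.37 to 1.37 for the other arrays, so results with them rest largely on 1 array. Median centring left 1 of the 8 genes, Cd80, fully separated and lower, against 4, with 2.31% of all genes tested lower and separated. Repeated quantile normalization left 4, with 3.66% of all genes tested lower and separated. Array medians differed by up to 0.11 before centring, and the share of negative differences over all genes tested fell from 58.8% to 48.0% with it.

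The number of genes that passed over all genes tested was 5 (2 lower, 3 higher). It was 1 without the level filter, 9 with a stricter one at 7, 0 with every probe set tested on its own, 16 with median centring (9 lower, 7 higher), 9 with repeated quantile normalization (5 lower, 4 higher), 49 with array weights, 0 without moderation, 12 with trend and robust moderation, 0 without both arrays that stood apart, and 0 to 2 with 1 array left out (0 without replicate 1 of the arrays lacking GW9662, or without replicate 1 or 3 of those with it). With the replicate number as a block 0 genes passed (379 at an unadjusted p under 0.05), and the median difference of the 8 genes was -0.15 as without it; the block changed no call among them. Of the CD40, TRAF and NF-kB genes 1 passed with array weights, against 0. Among the other genes named, the sign turned for Cd28 (0.02 with all arrays, -0.012 to 0.045 with 1 array left out), Tnfrsf9 (-0.0043 with all arrays, 0.018 with median centring, 0.027 with repeated quantile normalization, and -0.016 to 0.013 with 1 array left out), Tap1 (0.026 with array weights) and Tlr4 (0.0037 without both arrays that stood apart). The cause of these changes was not tested.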
